A study of Homo sapiens with 4 samples.

Results

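The prostate kallikreins are KLK1, KLK15, KLK3, KLK2, the pseudogene KLKP1 and KLK4, named here in their order along the long arm of chromosome 19. They were selected by symbol, as 6 of the 22637 genes in the deposited table, after their levels in these libraries were known, and the size of the KLK3 difference was among the values they were chosen by. Their levels and ratios are therefore a description, and no test was made of them.

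Total RNA was sequenced from 4 human prostatic adenocarcinoma cell lines, with 1 library per line. LNCaP is a castration-sensitive line, established from a lymph node metastasis, and C4-2B, descended from it, is castration-resistant. LN-OlapR was derived from LNCaP, and 2B-OlapR from C4-2B, by long culture in rising doses of olaparib, an inhibitor of the DNA repair enzyme PARP. All 4 lines are labelled untreated, and per the submitters' design text they were plated for 48 hours without the selection agent, while the study's methods give a longer time. The methods also say that the resistant lines were kept in medium with olaparib, and they do not mention its removal for sequencing. The resistant lines are each a single derived line of unstated clonality, so a value belongs to that line and not to resistance in general. With 1 library per line, intervals are exact 95% intervals that cover counting error only, and spread between cultures was not measured. Totals ranged from 19950537 to 26394267 counts, so that 1 normalized CPM (a scaled read count) stood on about 20 to 27 counts. The label of prostate epithelium was checked against 16 luminal markers, of which 14 had an entry and 13 or 14 exceeded 3 counts in each library. Their summed level was 4007 to 7453 normalized CPM, and KLK3 and KLK2 are themselves among them. KLK3 alone gave 1870 to 2685 normalized CPM of that sum in the lines other than LNCaP. Some luminal markers were scarce, as TGM4 stayed at or under 11 counts and MSMB at or under 63. Of 6 basal markers 3 had an entry, with a summed level of 38.0 to 59.0 normalized CPM, nearly all of it ITGA6 and DST, while KRT14 stayed at or under 13 counts and KRT5, KRT15 and TP63 had no entry. Of 5 leukocyte markers 2 had an entry, summing to 0.670 normalized CPM in LNCaP and 2.75 to 5.36 in the other lines, while PTPRC had none. Most of this was CD68, with 11 counts in LNCaP and 120 in LN-OlapR, against 86 in C4-2B and 45 in 2B-OlapR. The other entry, CD14, had 7 counts in LNCaP and 5 in LN-OlapR, against 8 in C4-2B and 12 in 2B-OlapR. CD68 thus ranked the lines as KLK3 did, from LN-OlapR down through C4-2B and 2B-OlapR to LNCaP. CD14, at 5 to 12 counts, was too scarce to rank them. The part of either gene in the KLK3 values was not tested.

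Kallikreins are secreted serine proteases made as inactive precursors. KLK3 encodes prostate-specific antigen (PSA), which liquefies semen and is the blood marker of prostate disease, and KLK2 encodes hK2, a trypsin-like protease that can activate the PSA precursor. In luminal prostate cells both genes are driven by androgens through elements in their promoters and in an upstream enhancer, so PSA mRNA is a standard readout of androgen signalling.

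The 5 protein-coding genes and the pseudogene lay within 91.6 kb on GENCODE 29 coordinates of GRCh38. KLK3 (ENSG00000142515) occupied chr19:50854915-50860764 on the plus strand, and KLK2 (ENSG00000167751) at chr19:50861568-50880567 on the same strand, was the next gene, with 803 bases between both annotated spans. The other 4 genes were on the minus strand. KLK1 (ENSG00000167748) was at chr19:50819148-50823787, KLK15 (ENSG00000174562) at chr19:50825289-50837213, KLKP1 at chr19:50882096-50896398 and KLK4 (ENSG00000167749) at chr19:50906352-50910738. KLKP1 is annotated as a transcribed unprocessed pseudogene, and it was matched by symbol because the table gives it a newer identifier (ENSG00000290915). KLK15 is overlapped by the antisense gene AC011523.1, which had no entry in the table, and as the counting of strand is not given, reads of that gene and of KLK15 cannot be told apart.

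The promoters of KLK3 and KLK2 are shown because both genes are classic targets of androgen signalling whose mRNAs differed in how far apart the lines were. Each line gives the 250 bases before the RefSeq start on GRCh38.p14, plus strand, with the best match to the palindromic androgen response element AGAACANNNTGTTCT in capitals. The KLK3 window is chr19:50854665-50854914 and the KLK2 window is chr19:50873189-50873438. The RefSeq start of KLK2 thus lies inside the GENCODE span of the gene, which opens upstream of it at 50861568, so the distance of 803 bases is not that between KLK3 and the promoter shown.
KLK3 promoter: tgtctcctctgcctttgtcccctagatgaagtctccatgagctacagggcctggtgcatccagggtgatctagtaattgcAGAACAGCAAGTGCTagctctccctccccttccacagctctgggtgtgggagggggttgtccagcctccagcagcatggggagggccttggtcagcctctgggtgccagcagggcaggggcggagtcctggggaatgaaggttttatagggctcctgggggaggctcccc
KLK2 promoter: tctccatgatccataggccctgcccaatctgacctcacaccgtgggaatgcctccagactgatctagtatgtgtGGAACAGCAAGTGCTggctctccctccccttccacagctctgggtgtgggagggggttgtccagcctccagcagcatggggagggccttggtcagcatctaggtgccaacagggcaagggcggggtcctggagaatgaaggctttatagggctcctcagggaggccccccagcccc
Of the 241 bases that aligned between both windows, 205 were identical (85.1%). The KLK3 match, at positions -170 to -156 from the start, differed from the element at 2 of its 12 defined letters. The KLK2 match, at positions -176 to -162 from its own start, differed at 3. Since the element is its own reverse complement, both strands are covered by 1 search. Matches were sought from 250 bases before the start to 50 after it, which is 50 bases past the stretches printed. Across 35116 RefSeq promoter windows of that span, 1.41% held a match with at most 2 mismatches and 10.8% one with at most 3. The KLK15 and KLK4 promoters, with 2 windows each, came no closer than 5 mismatches. An exact copy of either arm, AGAACA or TGTTCT, was found in the KLK3 window, as in 14.8% of all windows, and not in the KLK2 window. These matches describe letters in a window and no binding was measured. KLK1 and KLKP1 were not among the promoters used here.

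KLK3 and KLK2 are close copies, and so how well reads can be assigned between them bears on their values. Their coding sequences were identical at 671 of 786 aligned bases (85.4%), against 78.1% for KLK1 and KLK2, 74.9% for KLK1 and KLK3, and 62.9% to 66.7% for pairs that include KLK15 or KLK4. Of 5119 windows of 50 bases along the KLK3 transcripts, 11 occurred exactly in a KLK2 transcript (0.215%). No window of 100 bases was shared. KLKP1 shared no 50-base window with KLK4, KLK2 or KLK3.

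KLK3 was the member that differed most between lines. Its estimated count was 1428 in LNCaP and 62636 in LN-OlapR, and in the castration-resistant lines it was 49347 (C4-2B) and 38749 (2B-OlapR). Its level was 53.1 normalized CPM in LNCaP (50.4 to 55.9), against 2685 in LN-OlapR (2664 to 2706), 2412 in C4-2B (2390 to 2433) and 1870 in 2B-OlapR (1851 to 1889). LNCaP thus stood alone at the low end, while the other 3 lines lay within a narrow band. In such bulk libraries fewer cells that express a gene and less of its RNA per cell cannot be told apart. The lowest of those, 2B-OlapR, was 35.2-fold above LNCaP (33.4 to 37.1), whereas LN-OlapR was 1.11-fold above C4-2B and C4-2B was 1.29-fold above 2B-OlapR. PSA mRNA alone made up 0.00541% of the LNCaP library, 0.258% of that of LN-OlapR, 0.247% of that of C4-2B and 0.186% of that of 2B-OlapR.

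KLK2 ranked the 4 lines as KLK3 did, with other distances between them. LNCaP had an estimated 3399 counts of it, LN-OlapR 17438, C4-2B 5053 and 2B-OlapR 4828. The matching levels were 126 normalized CPM (122 to 131), 748 (737 to 759), 247 (240 to 254) and 233 (226 to 240). LN-OlapR stood alone at the high end, 3.03-fold above C4-2B (2.93 to 3.12), and LNCaP was again the lowest. C4-2B and 2B-OlapR differed by 1.06-fold (1.02 to 1.10), which is outside counting error. Whether separate cultures of 1 line would differ by as much was not measured. Under other scalings the log2 ratio of 2B-OlapR to C4-2B ran from -0.06 to -0.13, with -0.08 here.

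KLK4, a protease best known for its part in tooth enamel and also made in prostate under androgen control, did not have its lowest level in LNCaP. LNCaP had 4250 counts of KLK4, LN-OlapR 5438, C4-2B 2797 and 2B-OlapR 9291. On the normalized CPM scale this was 158 (153 to 163), 233 (227 to 239), 137 (132 to 142) and 448 (439 to 458). 2B-OlapR held the highest value, 1.92-fold above LN-OlapR, and C4-2B the lowest.

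KLK15, a protease also able to activate the PSA precursor in vitro, was far scarcer. It reached 77 counts in LNCaP and 186 in LN-OlapR, then 266 in C4-2B and 425 in 2B-OlapR. Expressed as normalized CPM, these were 2.86 (2.26 to 3.58), 7.97 (6.87 to 9.21), 13.0 (11.5 to 14.7) and 20.5 (18.6 to 22.6), so that none of the 4 intervals overlapped and LNCaP was the lowest. KLK1, the tissue kallikrein that releases kinins, rested on 4 counts in LNCaP and 22 in LN-OlapR, and on 65 in C4-2B and 39 in 2B-OlapR. Its levels of 0.149, 0.943, 3.18 and 1.88 normalized CPM carried wide intervals, from 0.0405 to 0.381 in LNCaP and from 2.45 to 4.05 in C4-2B. The level intervals of LN-OlapR and 2B-OlapR overlapped, as did those of 2B-OlapR and C4-2B, while the intervals of the ratios between neighbouring lines, the closest to equal at 1.12 to 2.58-fold for C4-2B over 2B-OlapR, did not include equal levels.

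KLKP1 varied least. LNCaP had 222 counts of it, LN-OlapR 151, C4-2B 103 and 2B-OlapR 180, or 8.26, 6.47, 5.03 and 8.69 normalized CPM. The difference between 2B-OlapR and LNCaP was 1.05-fold (0.859 to 1.29) and that between LN-OlapR and C4-2B was 1.29-fold (0.995 to 1.67), so neither of these neighbours could be told apart at this depth. From the highest to the lowest line, without a pseudocount, levels spanned 50.6-fold for KLK3, 21.3-fold for KLK1, 7.16-fold for KLK15, 5.91-fold for KLK2, 3.28-fold for KLK4 and 1.73-fold for KLKP1.

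**Figure D1:**
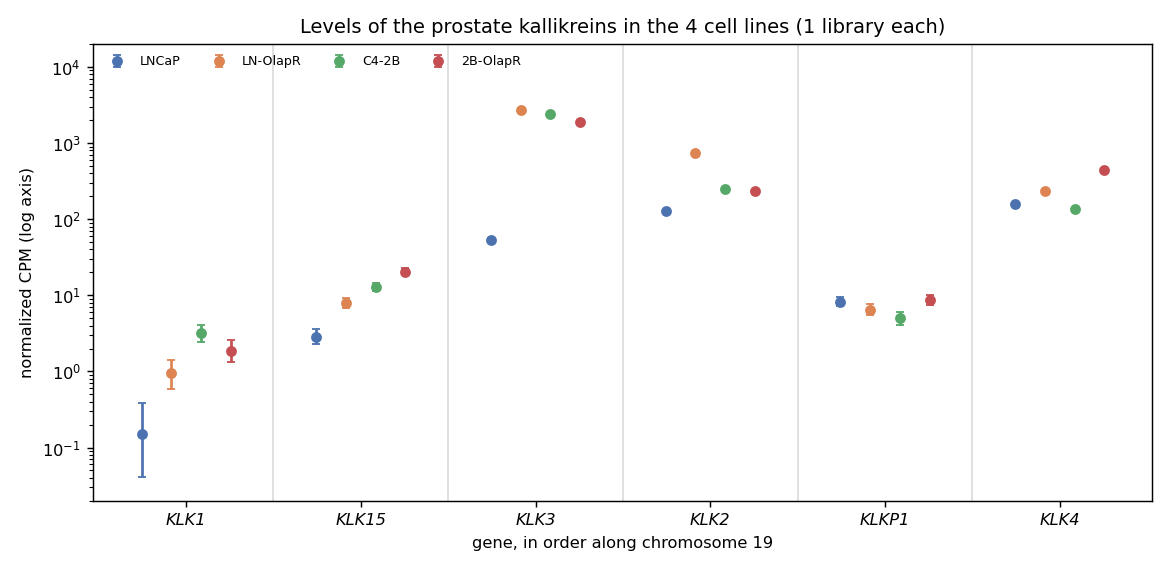
Normalized CPM (log axis) of the 6 genes, in order along chromosome 19, in LNCaP, LN-OlapR, C4-2B and 2B-OlapR. Points are single libraries and bars are exact 95% counting intervals, hidden by the point where short. KLK3 lies at 53.1 in LNCaP and between 1870 and 2685 in the other lines, while KLKP1 stays between 5.03 and 8.69 in all 4.

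LN-OlapR was first compared with LNCaP, the castration-sensitive line it came from (the LN pair). On a log2 scale with a pseudocount of 0.5 counts, KLK3 was higher by 5.66 (5.58 to 5.74), a 50.5-fold difference. KLK2 was higher by 2.56 (2.51 to 2.62), or 5.91-fold. KLK15 was higher by 1.47 (1.09 to 1.88), or 2.77-fold. The difference was thus largest for PSA, smaller for the hK2 protease and smaller again for KLK15. The ratio of KLK4 was 0.56 (0.50 to 0.62) and that of KLKP1 was -0.35 (-0.66 to -0.05), both under 2-fold. KLK1 gave 2.53 (1.11 to 4.66), but its mean was under the minimum of 1 normalized CPM over the pair, so it was left out of counts. Of the 5 members that passed that minimum, 3 were higher by 2-fold or more, and 0 were lower by as much. Over all 15373 genes that passed, 4.64% were that much higher and 4.83% that much lower. Since the members were chosen by these values, nothing is read from the gap between their count and that background. By size of ratio, KLK3 stood 25th from the top of all genes and KLK2 134th.

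The 2B pair, castration-resistant C4-2B and its derivative 2B-OlapR, gave other values. KLK4 was higher in 2B-OlapR by 1.71 (1.65 to 1.78) on the log2 scale, or 3.28-fold, and stood 264th of 15527 genes. KLKP1, its neighbour on the same strand, had a log2 ratio of 0.78 (0.43 to 1.15), and KLK15 one of 0.66 (0.43 to 0.88). The 2 genes that led the LN pair did not lead here. KLK2 was nearly level, at -0.08 (-0.14 to -0.03). KLK3 was at -0.37 (-0.39 to -0.35), or 0.775 of its C4-2B level, and KLK1 at -0.75 (-1.37 to -0.16). All 6 members passed the minimum here, of which 1, KLK4, was higher by 2-fold or more and 0 were lower by as much. Across all genes 4.42% were that much higher and 5.65% that much lower.

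C4-2B was also set against LNCaP, from which it descends. KLK3 was higher in C4-2B by 5.50 (5.43 to 5.58) on the log2 scale, or 45.4-fold, and stood 95th of 15580 genes. KLK1 was higher by 4.26 (2.99 to 6.33), and it passed the minimum only through its C4-2B level, so it had to come out as higher. KLK15 was higher by 2.18 (1.81 to 2.57). KLK2 parted from KLK3 in this comparison. It had a log2 ratio of 0.97 (0.90 to 1.03), just short of the 2-fold mark, and its interval reached past that mark. KLK4 gave -0.21 (-0.28 to -0.14) and KLKP1 -0.71 (-1.07 to -0.37). With KLK1 set aside for that reason, 2 of 5 members were higher by 2-fold or more and 0 lower by as much (3 of 6 with it), where 8.00% of all genes were that much higher and 7.18% that much lower. The comparisons of LN-OlapR and of C4-2B with LNCaP share the LNCaP library, so the low KLK3 count there enters both, and their likeness is not counted as a result.

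**Figure D2:**
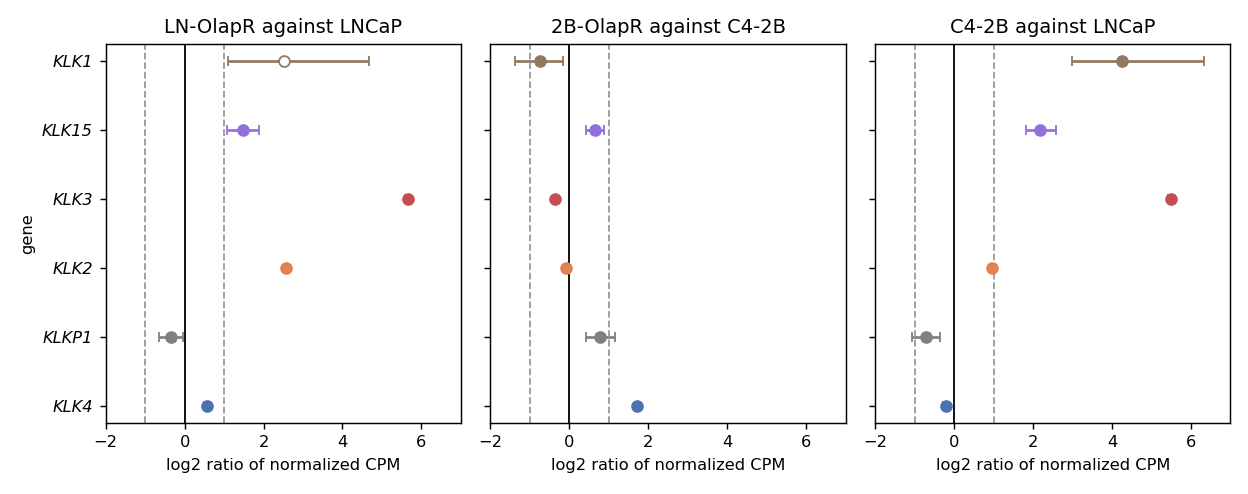
Log2 ratio of normalized CPM for the 6 genes in 3 comparisons. Points are ratios of 2 single libraries, bars are exact 95% counting intervals, dashed lines mark 2-fold, and the open point marks a gene under the minimum mean. KLK3 lies at 5.66 and 5.50 in the outer panels and at -0.37 in the 2B pair, where KLK4 lies at 1.71.

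**Figure D3:**
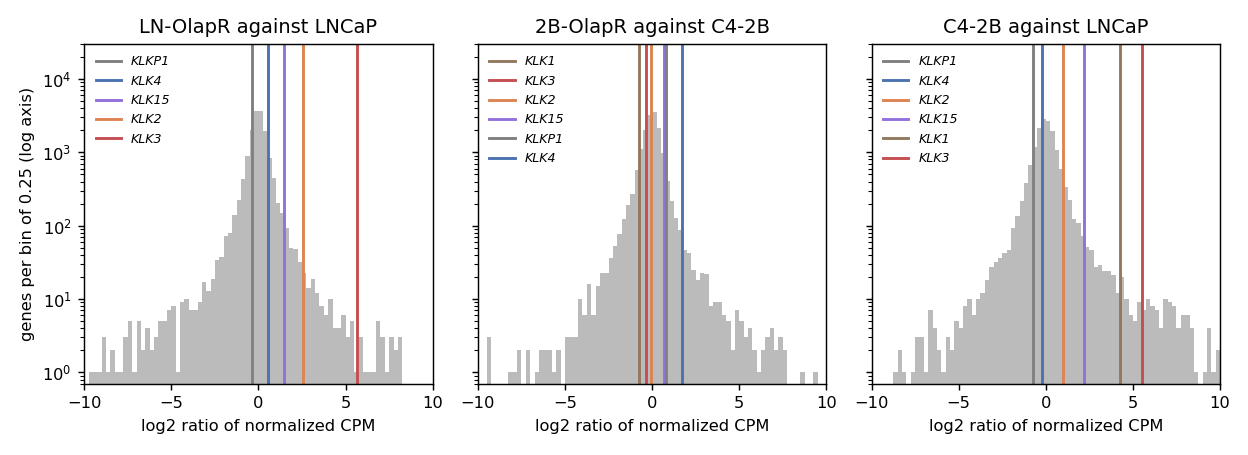
Number of genes (log axis) in each bin of 0.25 of the log2 ratio of normalized CPM, over all genes past the minimum mean in each comparison, with a vertical line at each member that passed. KLK3 lies far in the upper tail of the first and last panels, 25th of 15373 and 95th of 15580 genes. In the 2B pair it lies below the centre, at -0.37, 3525th from the lowest of 15527 genes.

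Ratios between members within a library do not depend on scaling between libraries. LNCaP had 0.420 KLK3 counts for each KLK2 count (0.395 to 0.447). The ratio was 3.59 in LN-OlapR (3.53 to 3.65), 9.77 in C4-2B (9.49 to 10.1) and 8.03 in 2B-OlapR (7.79 to 8.27). KLK2 therefore outnumbered KLK3 only in LNCaP, and LN-OlapR, although its KLK3 level was the highest, lay well below both C4-2B lines in this ratio. The ratio of KLK2 to KLK4 counts was 0.800 in LNCaP and 0.520 in 2B-OlapR. It was 3.21 in LN-OlapR and 1.81 in C4-2B. KLK4 thus had more counts than KLK2 in LNCaP and 2B-OlapR, but these counts are not corrected for transcript length. Per kb of the longest transcript the ratio in C4-2B was 0.806, so KLK4 was above KLK2 there too. In LN-OlapR the ratio per kb was 1.43, or 0.970 by merged exons. KLKP1 never reached more than 0.0522 counts for each KLK4 count, the LNCaP value, and was at 0.0194 in 2B-OlapR.

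Together the 6 genes took 0.0355% of all counts in LNCaP and 0.354% in LN-OlapR, against 0.289% in C4-2B and 0.257% in 2B-OlapR. In LNCaP the largest share of these counts was KLK4 with 45.3%, followed by KLK2 with 36.2% and KLK3 with 15.2%. In the other lines KLK3 took the most, with 85.6% in C4-2B, 72.9% in LN-OlapR and 72.4% in 2B-OlapR. KLK2 was the next largest in LN-OlapR (20.3%) and C4-2B (8.77%), and KLK4 in 2B-OlapR (17.4%).

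**Figure D4:**
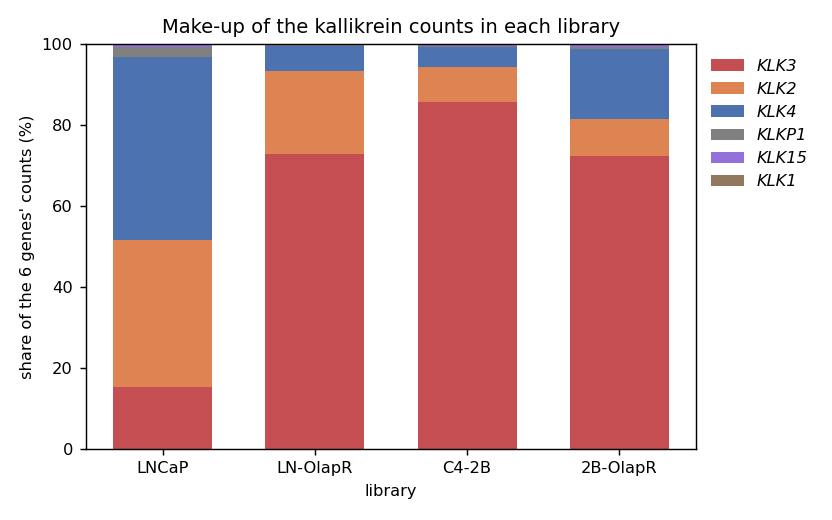
Share of the 6 genes' summed counts (%, stacked bars reaching 100) taken by each gene in each of the 4 libraries. KLK4 and KLK2 make up most of the LNCaP bar, with 45.3% and 36.2%, and KLK3 makes up 72.4% to 85.6% of the other bars.

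Levels of different genes were compared as normalized CPM per kb of the longest transcript. In LNCaP the order was KLK4 with 117, KLK2 with 41.9, KLK3 with 19.7, KLKP1 with 5.39, KLK15 with 2.02 and KLK1 with 0.0803. In LN-OlapR KLK3 led with 994, then KLK2 with 248 and KLK4 with 173. The last of these orders turned when the merged exons served as length, with KLK4 at 120 and KLK2 at 117. In C4-2B per-kb levels were 893 for KLK3, 101 for KLK4 and 81.8 for KLK2, and in 2B-OlapR they were 692, 333 and 77.2. By each length used, KLK3 ranked below KLK4 and KLK2 in LNCaP and first in the other lines.

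The neighbourhood was described next. Of the 10 other kallikrein genes of the cluster, KLK5 to KLK14, which are mostly known from skin and other epithelia, 1 had an entry. This was KLK14, with 3 counts in LNCaP and in 2B-OlapR, 4 in LN-OlapR and 7 in C4-2B. Within 200 kb on either side of the cluster 43 further genes are annotated, of which 9 had an entry and 8 reached 10 counts in some library. C19orf48, the nearest abundant gene, had log2 ratios of -0.02 (-0.05 to 0.02) for the LN pair, 0.38 (0.34 to 0.42) for the 2B pair and -0.11 (-0.15 to -0.08) for C4-2B against LNCaP. Between it and KLK3 lie LINC01869, with 33, 22, 11 and 14 counts, and the members KLK1 and KLK15. On the far side of KLK4, CTU1, a tRNA-modifying enzyme subunit, had log2 ratios of 0.67, 0.33 and 1.65. CD33, a leukocyte surface receptor, had 52 counts in LNCaP and 6 in LN-OlapR, a log2 ratio of -2.81 (-4.42 to -1.69). C19orf81 had 46, 131, 21 and 128 counts, with log2 ratios of 1.70 (1.22 to 2.23) in the LN pair and 2.56 (1.92 to 3.33) in the 2B pair. CLEC11A, a secreted growth factor of bone, was at -0.32, 0.86 and 0.30. SYT3 and SHANK1 stayed at or under 27 counts. The ratio of KLK3 in the LN pair was thus not shared by the measured genes on either side of it, and even KLK15 and KLK2, the nearest, were at 1.47 and 2.56.

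**Figure D5:**
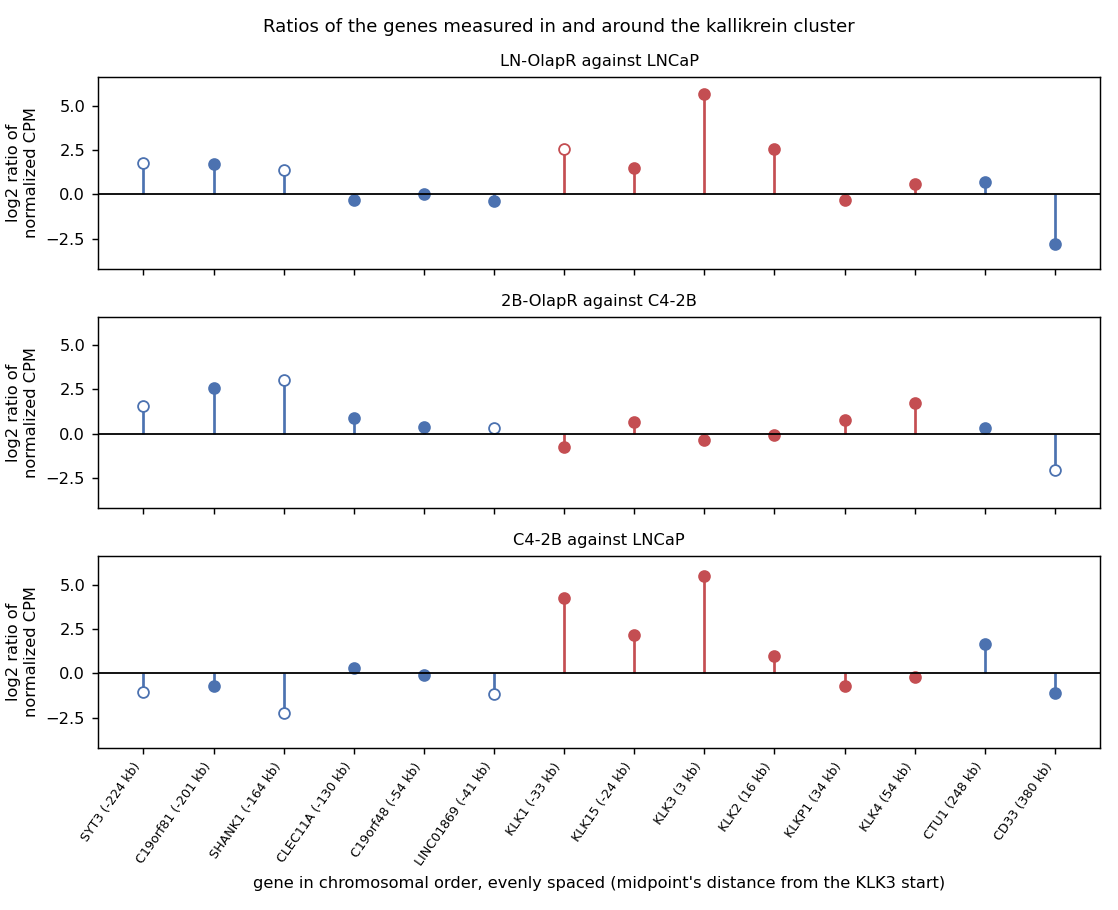
Log2 ratio of normalized CPM, in 3 comparisons, for the 6 kallikreins (red) and the 8 flanking genes with at least 10 counts in some library (blue), evenly spaced in chromosomal order with the distance of each midpoint from the KLK3 start. Open points are genes under the minimum mean of the comparison. In the LN pair KLK3 at 5.66 rises above KLK15 at 1.47 and KLK2 at 2.56, and in the 2B pair KLK4 at 1.71 stands above KLK2 at -0.08.

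Genes whose pattern over the 4 libraries was most like that of KLK3 were found by the root mean square difference of log2 normalized CPM, after subtracting each gene's mean, among the 10132 genes that averaged 10 normalized CPM or more. Among the 5 closest were CADPS2, which primes secretory vesicles (0.43), TM4SF1, a surface membrane protein (0.53), PCDH7, a protocadherin (0.57), and RTN4RL1, a Nogo receptor homologue (0.81). In the order LNCaP, LN-OlapR, C4-2B, 2B-OlapR, CADPS2 had 18, 703, 1192 and 727 counts. In LNCaP the genes named here were at 0.558 (PCDH7) to 2.53 normalized CPM (RTN4RL1), so they reached the mean of 10 only through the other lines. The other members lay at 1.13 for KLK1, 1.57 for KLK15, 1.80 for KLK2, 2.22 for KLK4 and 2.53 for KLKP1. Since the 5 closest were picked as the smallest distances among 10132 genes, nothing is read from the members lying farther away. For KLK2 the closest were PCAT1, a long noncoding RNA of prostate cancer (0.16), the transcription factor PAX1 (0.22), the presynaptic protein RIMS1 (0.26), PDZD4 (0.28) and SCCPDH (0.29). PCAT1 had 171, 798, 309 and 232 counts. With 4 libraries these are descriptions of likeness, without a test.

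Transcription factors and coregulators of androgen signalling were read from a further list. Of its 16 genes that passed the minimum, 0 were at least 2-fold higher or lower in the LN pair, beside 4.64% and 4.83% of all genes, where log2 ratios ran from -0.54 for the corepressor NCOR1 to 0.58 for the epithelial factor GRHL2. In the 2B pair 1 was higher, the pioneer factor GATA2 with a log2 ratio of 1.20 (1.16 to 1.25), beside 4.42% of all genes, and the lowest was the coactivator NCOA1 at -0.53. In C4-2B against LNCaP 1 was higher, NCOA1 at 1.40, and 1 lower, its relative NCOA2 at -1.11, beside 8.00% and 7.18% of all genes, so these counts were near the background.

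Other androgen-induced genes were read from a list of 30, of which 29 passed the minimum. In the LN pair 9 were at least 2-fold higher and 0 lower, beside 4.64% and 4.83% of all genes. Among them, the metalloreductase STEAP4, passed the minimum only through its LN-OlapR level, and without it 8 of 28 were higher. The list had a median log2 ratio of 0.40, where that of all genes was -0.0040. AZGP1, a secreted zinc-binding glycoprotein, was highest at 5.30 (5.18 to 5.42), close to KLK3 in size, with 600 counts in LNCaP and 20483 in LN-OlapR. The prostate protease TMPRSS2 was at 1.28 and the chaperone FKBP5 at 1.18. Of these genes AZGP1 alone came near the KLK3 ratio. In the 2B pair 3 were higher and 4 lower, beside 4.42% and 5.65% of all genes, with a median of -0.28 against -0.00026 over all genes. The prostaglandin receptor PTGER4 was at 3.38 and SLC45A3, the prostate antigen prostein, at -2.99. In C4-2B against LNCaP 8 were higher (7 of 28 without STEAP4, for the same reason) and 2 lower, beside 8.00% and 7.18% of all genes, with a median of -0.06 against -0.02, from AZGP1 at 2.95 to the transcription factor MAF at -1.29. KLK3 in C4-2B lay above each of these 29 genes. Both KLK3 and the list were chosen with results of these data known. Nothing is therefore read from the place of KLK3, or from the list's counts and medians.

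Proteins that kallikreins act on, or that act on them, were sparsely measured. Among the 14 listed protease inhibitors 3 passed the minimum, and none of these was 2-fold higher or lower in any comparison. Of all genes, 4.42% to 8.00% were that much higher and 4.83% to 7.18% that much lower, so nothing is read from so few inhibitors. SPINT2, a membrane-bound inhibitor, had log2 ratios of 0.32, 0.31 and -0.40 in the LN pair, the 2B pair and C4-2B against LNCaP. SPINT1, its relative, was at -0.26, 0.35 and 0.13, and SERPINB6 at -0.53, -0.77 and 0.13. Of the listed substrates and activators, 4 of 9 were higher by 2-fold or more in the LN pair, 3 of 10 in the 2B pair, and, comparing C4-2B with LNCaP, 1 of 8, and 0 were lower in each, beside 4.64%, 4.42% and 8.00% of all genes that were higher. IGFBP5 in the LN pair and TGFB2 in the 2B pair passed the minimum only through the line where they were high, and among genes above it in both lines 3 of 8 and 2 of 8 were higher. The median log2 ratios were 0.96, 0.35 and 0.30, against -0.0040, -0.00026 and -0.02 over all genes. TMPRSS2 is on this list too, and 4 or fewer genes make up each of these counts. IGFBP3, an insulin-like growth factor carrier that PSA cleaves, had 136 counts in LNCaP and 308 in LN-OlapR, then 130 in C4-2B and 1912 in 2B-OlapR. Its log2 ratio was 3.86 (3.60 to 4.13) in the 2B pair, where KLK3 was at -0.37. IGFBP5 was at 2.45 in the LN pair and fibronectin, FN1, at 2.04 in C4-2B against LNCaP. The lowest were F2RL1, a protease-activated receptor, at -0.70 in the LN pair and -0.81 in C4-2B against LNCaP, and LTBP1, which holds latent TGF-beta, at -0.28 in the 2B pair.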

How the data were processed

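The authors prepared stranded mRNA libraries from 100 ng of total RNA and deposited estimated counts per gene, 1 column per cell line, not scaled between libraries (46.2% of values are not whole). The submitters' processing notes name STAR, Partek, GRCh38 and hg38, and the counting tool and annotation are not given in the sources used here. Each of the 22637 genes sums to at least 10 counts. Counts were rounded, scaled by TMM (edgeR 4.0.16, R 4.3.3) and analysed in Python 3.11.15 with numpy 2.4.6, pandas 2.3.3, SciPy 1.17.1 and matplotlib 3.10.9. Log2 ratios used a pseudocount of 0.5 counts and counts of genes a minimum mean of 1 normalized CPM over the pair. Levels have exact Poisson intervals, and ratios exact Clopper-Pearson intervals, at 95%, covering counting error only. With 1 library per line no p-value was computed. Calculations were tested on simulated data. Lengths and positions came from GENCODE 29, promoters from RefSeq. DESeq2 1.42.0 size factors, total counts, upper quartiles, other minimums, lengths and pseudocounts were alternatives.

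Members and lists were chosen with earlier results of these data known. By rule, the text names the 6 members, the other cluster genes, flanking genes within 200 kb with at least 10 counts in a library, the 5 genes most like KLK3 and KLK2, and each list's highest and lowest ratio. Some genes under that rule are not reported here. TMPRSS2, FKBP5, STEAP4, TGFB2, the markers named and the middle values of the 3 inhibitors are outside that rule, picked with their values in view.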

Additional observations from a re-analysis of the deposited data

Results flagged for a closer look

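KLK3, KLK2, KLKP1 and KLK1 had log2 ratios of opposite sign in the LN pair and the 2B pair, with both counting intervals clear of 0. Of the 5 members past the minimum mean in both pairs 3 did so, KLK1 not being among them, as did 16.0% of the 14602 genes past it, and nothing is read from the gap since the members were chosen by these values. The difference between pairs was not tested, as each rests on single libraries. For KLK3 the log2 ratio was 5.66 in the LN pair and -0.37 in the 2B pair, a difference of 6.03. For KLK2 it was 2.56 and -0.08, a difference of 2.65, and the second of these is close to level. KLK1, with 4 counts in LNCaP and under the minimum mean in the LN pair, gave 2.53 and -0.75, a difference of 3.27. KLKP1 went the other way, with -0.35 and 0.78, a difference of -1.13. The level that set KLK3 apart was that of the LNCaP library, at 53.1 normalized CPM against 1870 to 2685 in the other 3, and whether another LNCaP culture would give it was not tested.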

How the results depend on the processing

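Under total counts, DESeq2 size factors, upper quartiles and a pseudocount of 2, no log2 ratio of the 6 genes changed sign or its side of 2-fold (0 of 72). Another scaling moved a ratio by at most 0.084 and shifted the median of all genes by no more. Those of KLK3 and KLK2 that left their counting interval were 5.58 (KLK3) and 2.48 (KLK2) in the LN pair under total counts, and -0.41 under total counts and -0.34 under upper quartiles for KLK3 in the 2B pair. In the LN pair the count of members at least 2-fold higher, 3, became 4 at a minimum mean of 0.1 normalized CPM, as KLK1 came in. It became 2 at a minimum of 10, as KLK15 dropped out. With a minimum mean of 10 normalized CPM, 1 member instead of 3 was at least 2-fold higher in C4-2B against LNCaP, since fewer genes are tested. All-gene counts moved with that minimum for the same reason. How many genes passed a minimum of 0.1 or 10 is not given here. The counts at those minimums are therefore not shares, and nothing is read from them. In the LN pair, 713 genes higher and 742 lower became 2011 and 1983 at a minimum of 0.1, and 196 and 192 at 10. In the 2B pair, 687 and 877 became 1956 and 2220, or 163 and 256. In C4-2B against LNCaP, 1246 and 1118 became 2809 and 2495, or 424 and 348.

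The KLK3 to KLK2 ratio per kb was 0.469, 4.01, 10.9 and 8.97 in LNCaP, LN-OlapR, C4-2B and 2B-OlapR by longest transcript. It was 0.579, 4.95, 13.5 and 11.1 by merged exons, and 0.762, 6.52, 17.7 and 14.6 by longest protein-coding transcript, a length chosen after seeing the data. KLK2 to KLK4 in LN-OlapR turned from 1.43 to 0.970 by merged exons. At a minimum mean of 1 normalized CPM, 1 of the 5 genes most like KLK3 and 2 of those most like KLK2 were found again. No replicate could be left out and no paired analysis was possible because each line has 1 library.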
